A study of Mus musculus with 10 samples.

Results

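Pdia2, Gng13, Atp1b2 and Tac2 are 4 genes better known from the pancreas and the nervous system than from blood, and their transcripts were measured in differentiating EML-C1 cells, an established mouse blood progenitor line. They were picked from these same arrays because they were higher in cells given erythropoietin (EPO) than in untreated cells, or higher in Sca1-low than in Sca1-high cells, in all 3 arrays or treatments compared, although they are not classic erythroid markers. They make up 4 of the 14202 genes tested and 4 of the 20656 gene symbols with a named probe. All 4 passed the filter on dim probes, which asked for a signal well above background on at least 2 arrays.

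Expression was measured on 1-colour Agilent arrays under 10 conditions with 1 array each, so there were no replicates, and duplicates named in the design text were not analysed here. Untreated EML-C1 cells at day 0 were the control. EPO cells received 10 ng/ml EPO. Cells of the arm called IL-3/GM-CSF received all-trans retinoic acid (10 µM) with 10 ng/ml IL-3 throughout, and 10 ng/ml GM-CSF only after day 3, so their day 3 arrays had seen no GM-CSF. Cells of the combined arm received EPO together with all the factors of the IL-3/GM-CSF arm. Each arm gave a Sca1-low and a Sca1-high fraction at day 3 and, at day 6, an array whose labels give no Sca1 fraction. EML-C1 is a single line kept in medium conditioned by BHK/MKL cells, so every array describes that line.

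Tachykinins are short peptides cut from larger precursors, and they signal through receptors coupled to heterotrimeric G proteins. The beta and gamma subunits of such G proteins act as a pair. The Na,K-ATPase, built from an alpha and a beta subunit, keeps sodium and potassium gradients across the cell membrane, and protein disulfide isomerases help newly made proteins fold in the endoplasmic reticulum. EPO acts on progenitors through its receptor, the kinase JAK2 and the factor STAT5, while GATA1 and KLF1 are the transcription factors best known for switching on red cell genes. Sca1, encoded by Ly6a, is a surface protein of early progenitors.

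Promoter sequences were read to see whether letters that GATA1, KLF1 and STAT5 are known to bind stand near the starts of these genes. The RefSeq promoter table (GRCm38.p6) matched 3 of the 4 genes with 4 windows, and Atp1b2 had no entry. Each line below gives the 250 bases before a transcript start, 5′ to 3′ in the sense of the gene, with capitals marking a match. The window of Tac2, the gene of the neurokinin B precursor, is chr10:127724228-127724477 on the plus strand. The windows of Gng13, a G protein gamma subunit gene with several starts, are chr17:25716922-25717171 (start a) and chr17:25717278-25717527 (start b) on the plus strand. The window of Pdia2, a disulfide isomerase gene, is chr17:26199088-26199337 on the minus strand.
Tac2: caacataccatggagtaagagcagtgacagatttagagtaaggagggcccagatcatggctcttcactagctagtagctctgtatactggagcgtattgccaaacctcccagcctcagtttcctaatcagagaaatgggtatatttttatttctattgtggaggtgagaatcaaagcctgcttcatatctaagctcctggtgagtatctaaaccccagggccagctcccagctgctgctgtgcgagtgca
Gng13 start a: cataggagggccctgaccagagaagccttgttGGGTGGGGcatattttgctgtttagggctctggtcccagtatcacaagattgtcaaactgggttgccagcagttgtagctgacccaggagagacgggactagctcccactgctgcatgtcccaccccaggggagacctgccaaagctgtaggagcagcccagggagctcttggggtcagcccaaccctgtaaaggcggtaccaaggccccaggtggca
Gng13 start b: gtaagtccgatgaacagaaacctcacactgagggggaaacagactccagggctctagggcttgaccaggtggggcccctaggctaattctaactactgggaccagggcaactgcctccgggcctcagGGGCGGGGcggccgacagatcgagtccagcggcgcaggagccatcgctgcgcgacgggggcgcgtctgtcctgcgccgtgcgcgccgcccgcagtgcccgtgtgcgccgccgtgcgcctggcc
Pdia2: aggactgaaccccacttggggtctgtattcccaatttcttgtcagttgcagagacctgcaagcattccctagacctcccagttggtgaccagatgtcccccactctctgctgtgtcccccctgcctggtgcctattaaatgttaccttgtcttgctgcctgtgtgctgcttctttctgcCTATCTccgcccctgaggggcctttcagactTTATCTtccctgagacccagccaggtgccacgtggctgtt

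The searched letters were AGATAA or AGATAG or TGATAA or TGATAG for GATA factors, CCNCNCCC for KLF1 and TTCNNNGAA for STAT5, on both strands, where N is any base. The Pdia2 window held 2 GATA matches, CTATCT beginning 71 bases and TTATCT beginning 40 bases before the start, both on the opposite strand. Of 32851 windows of the same length in the table, 26.5% held at least 1 GATA match and 6.40% held at least 2. Each Gng13 window held 1 KLF1 match, GGGTGGGG beginning 218 bases and GGGCGGGG beginning 123 bases before the start, and 45.9% of all windows held at least 1. No window of these genes held a STAT5 match, which 7.02% of all windows did, and the Tac2 window held none of the motifs. A match describes letters only, and no binding was measured.

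Levels are log2 signals minus the 75th percentile of the array, and differences are on the same log2 scale where no fold is given. That percentile ran from 309 intensity units (EPO Sca1-low) to 736 (untreated), and 42.5% (EPO day 6) to 57.2% of spots per array were well above background, with 0 saturated. The number of arrays limits the precision. The arrays came from 3 slides, with untreated, EPO day 6 and combined day 6 on slide 1, the EPO and IL-3/GM-CSF fractions of day 3 on slide 2, and the rest on slide 3. The sorted fractions carried their label, since Ly6a lay between -4.25 and -2.80 on the 3 Sca1-low arrays and between 1.89 and 4.76 on the 3 Sca1-high arrays. Where a spot was not well above background its measured value is printed as a level, and a fold against it is a bound, taken against the higher of that value and the lowest signal well above background on that array. Such spots have no order among themselves. Means and fits used the measured values.

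Tac2 encodes the precursor of neurokinin B, a tachykinin of the brain and placenta. Under EPO it lay at 2.91 in Sca1-low cells, -2.88 in Sca1-high cells and 3.29 at day 6, and under IL-3/GM-CSF at 1.51, -4.64 and -5.96 in the same order. Under the combined treatment it lay at 1.37, -4.17 and -5.75, and the untreated array read -4.48. The untreated array and the day 6 arrays of the IL-3/GM-CSF arm and the combined arm were not well above background. The 4 bright arrays were thus the 3 Sca1-low arrays and EPO day 6. The lowest of these 4 stood 4.25 above EPO Sca1-high, the next array, a gap larger than the residual SD of 2.56 that Tac2 had in the fit of all 10 arrays. No other pair of neighbours in the order of measured values was further apart than that SD. Here and for the genes below, the residual SD holds unevenness of treatment over population and not replicate error. A gap under it therefore does not show that arrays are alike.

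Gng13 encodes a gamma subunit of heterotrimeric G proteins known from taste cells, olfactory neurons and the retina. It lay at 3.37 in EPO Sca1-low cells, -2.23 in EPO Sca1-high cells and 2.72 at EPO day 6. The IL-3/GM-CSF arrays read -0.62, -5.42 and -6.39 and the combined arrays -0.63, -4.87 and -5.56 for Sca1-low, Sca1-high and day 6, with -6.03 in untreated cells. Gng13 was well above background on 5 of 10 arrays, the 3 EPO arrays and the Sca1-low arrays of the other arms, and had only a bound elsewhere. EPO day 6 stood 3.34 above IL-3/GM-CSF Sca1-low, and EPO Sca1-high 2.63 above the measured value of combined Sca1-high, which was not well above background. Both gaps exceeded the residual SD of 1.79, and the other neighbours in the order of measured values lay closer than that SD.

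Atp1b2 encodes the beta 2 subunit of the Na,K-ATPase, which also serves as an adhesion molecule on glia. It was well above background on all 10 arrays. The EPO arrays read 6.65 in Sca1-low cells, 4.59 in Sca1-high cells and 6.65 at day 6. Under IL-3/GM-CSF it read 4.96, 0.97 and -2.85 and under the combined treatment 5.53, 1.65 and 0.61, with 2.88 in untreated cells. The order ran without a gap over the residual SD of 2.06 from EPO day 6 down to combined day 6, and the IL-3/GM-CSF day 6 array stood 3.46 below that.

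Pdia2 encodes a protein disulfide isomerase known from the pancreas. It lay at 6.58 in Sca1-low cells, 1.05 in Sca1-high cells and 6.07 at day 6 under EPO, and at -0.33 in untreated cells. The IL-3/GM-CSF arrays read 3.87, -2.31 and -4.85 and the combined arrays 3.53, -1.79 and -3.63. Only the IL-3/GM-CSF day 6 array was not well above background. The lowest of the 4 brightest arrays, combined Sca1-low, stood 2.48 above EPO Sca1-high, against a residual SD of 2.47, and no other neighbours were further apart than that SD. A pair of probes for this transcript had levels that correlated at r = 0.999 over the 10 arrays, and the dimmer probe gave Sca1-low minus Sca1-high differences of 5.49, 5.88 and 5.28 where the brighter gave 5.53, 6.19 and 5.32. The other 3 genes rested on 1 probe each. The extraction software put the error of a single spot of these genes at about 10.0% of the signal on bright arrays and at up to 100% on dim ones.

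**Figure D1:**
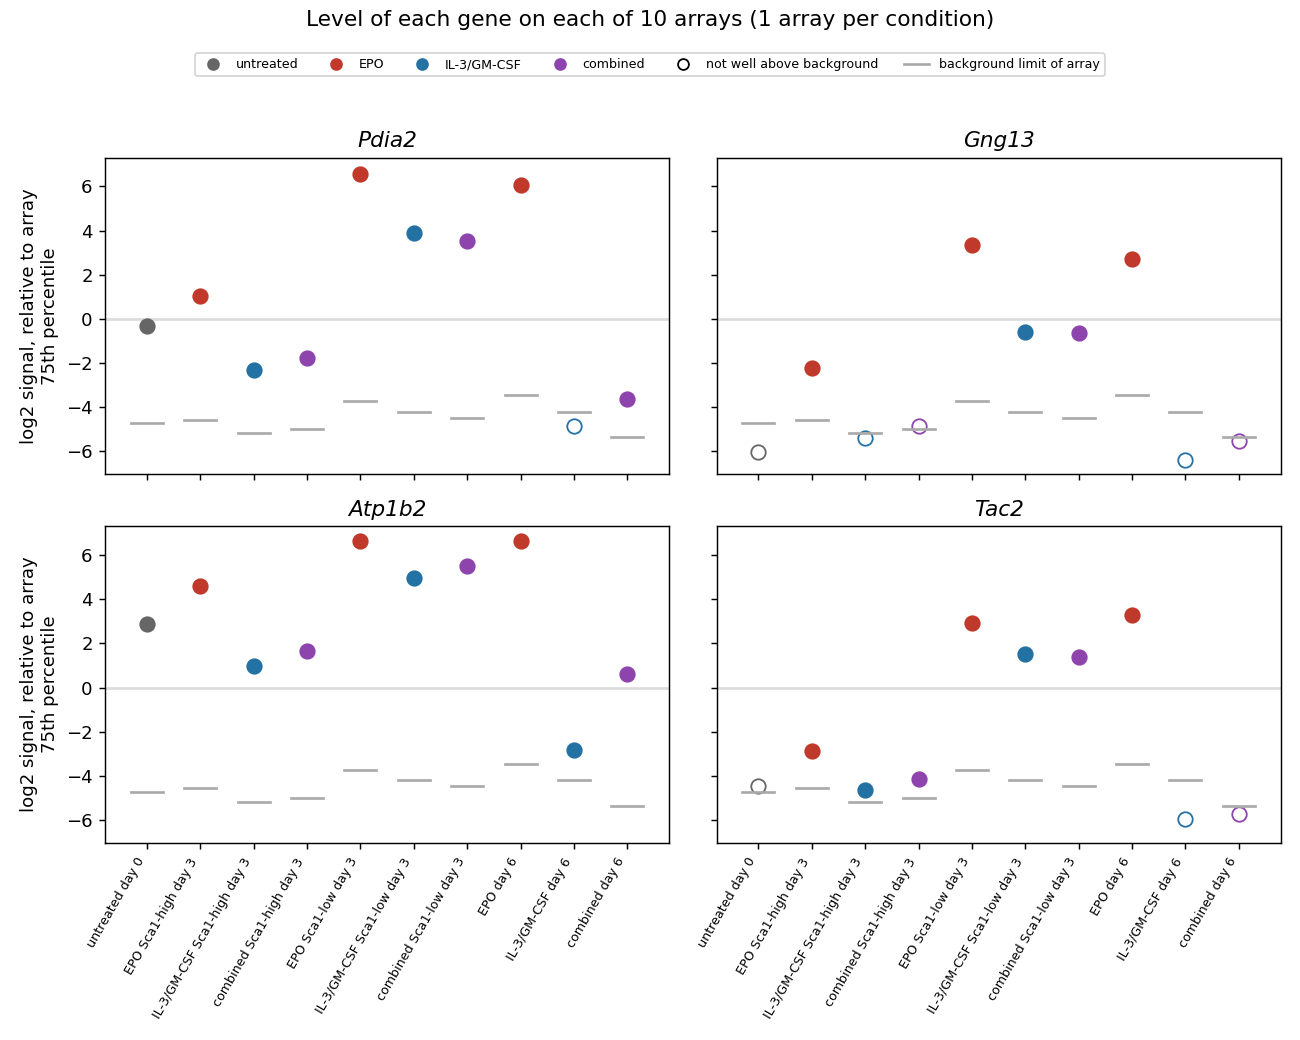
Level of each gene (log2 signal relative to the array's 75th percentile, y axis) on each of 10 arrays (x axis), 1 point per array, coloured by treatment. Open points were not well above background and grey dashes mark each array's background limit. In every panel the 3 Sca1-low arrays and EPO day 6 hold the 4 highest points, and the IL-3/GM-CSF day 6 point is open in the panels of Pdia2, Gng13 and Tac2.

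The difference between the Sca1 fractions at day 3 was used to choose the genes, so it is described without a test. Pdia2 was higher in Sca1-low cells by 46.2-fold under EPO, 72.8-fold under IL-3/GM-CSF and 40.0-fold under the combined treatment. Tac2 was higher by 55.5-fold, 71.1-fold and 46.5-fold in the same order. Gng13 was higher by 48.5-fold under EPO, at least 23.9-fold under IL-3/GM-CSF and at least 18.8-fold under the combined treatment, since its Sca1-high arrays there were not well above background. Atp1b2 was higher by 4.17-fold, 16.0-fold and 14.7-fold. Each pair of fractions shared a slide. The mean log2 difference was 5.68 ± 0.45 for Pdia2, 4.88 ± 0.68 for Gng13, 3.31 ± 1.09 for Atp1b2 and 5.83 ± 0.31 for Tac2 (SD, n = 3 treatments). All 4 were at least 2-fold higher in all 3 treatments, as were 384 of the 14202 genes tested (2.7%), and the way the genes were chosen fixes that count. After normexp background correction and quantile normalization, the mean was 3.21 for Gng13 and 3.90 for Tac2. Atp1b2 was the gene with the smaller difference under EPO, where its Sca1-high level of 4.59 stood above the 0.97 and 1.65 of the other arms.

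The EPO arrays against the untreated array were the other comparison behind the choice. At EPO day 6, on the same slide as the untreated array, Pdia2 was 84.1-fold, Atp1b2 13.7-fold, Gng13 at least 176-fold and Tac2 at least 219-fold higher. EPO Sca1-low cells on another slide were higher by 120.2-fold for Pdia2, 13.7-fold for Atp1b2, at least 274-fold for Gng13 and at least 168-fold for Tac2. EPO Sca1-high cells, which kept the sorting marker, differed less: 2.60-fold for Pdia2, 3.27-fold for Atp1b2, at least 5.66-fold for Gng13 and at least 3.02-fold for Tac2. The mean over the 3 EPO arrays was 4.89 ± 3.05 for Pdia2, 7.32 ± 3.06 for Gng13, 3.08 ± 1.19 for Atp1b2 and 5.59 ± 3.46 for Tac2 (SD, n = 3 arrays). After normexp background correction and quantile normalization it was 4.35 for Gng13 and 3.68 for Tac2. All 4 genes passed 2-fold on all 3 EPO arrays, as did 98 genes in all (0.69%). These comparisons share the single untreated array. In RNA from bulk cells, fewer cells of a type and less RNA per cell cannot be told apart.

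From the Sca1-low fraction of day 3 to day 6 the 4 genes parted by treatment. Under EPO they stayed within 2-fold: day 6 minus Sca1-low was -0.51 for Pdia2, -0.64 for Gng13, 0.00 for Atp1b2 and 0.38 for Tac2. Under IL-3/GM-CSF, day 6 was lower than Sca1-low by at least 271-fold for Pdia2, 225-fold for Atp1b2, at least 52.7-fold for Tac2 and at least 12.1-fold for Gng13. Under the combined treatment, which also contained EPO, it was lower by 144-fold for Pdia2, at least 106-fold for Tac2, 30.3-fold for Atp1b2 and at least 26.6-fold for Gng13. All 4 were lower by 2-fold or more in both arms, against 818 of 14202 genes (5.76%), and 634 genes (4.46%), these 4 among them, were also within 2-fold under EPO. The Sca1-low arrays that helped to choose the genes are the bright side here, so the count does not stand apart from that choice. The day 6 and day 3 arrays of each arm lay on different slides, so slide and day cannot be told apart within an arm. Wherever GM-CSF was given, it came after day 3, so its addition cannot be told apart from day either. EPO cells never received it. Sca1-low cells were also a sorted fraction, while the day 6 labels name none, so sorting changed along with day.

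Set against the Sca1-high fraction instead, day 6 was lower under both IL-3/GM-CSF and combined treatment for 2 of the 4 genes, against 151 of all genes (1.06%). Pdia2 was lower by at least 3.72-fold and 3.59-fold, and Atp1b2 by 14.1-fold and 2.06-fold. Tac2 was at least 2.29-fold lower in the combined arm and gave no fold in the IL-3/GM-CSF arm, and Gng13 was below background on both sides in both arms. Under EPO, day 6 was higher than Sca1-high for each gene, by 32.3-fold for Pdia2, 31.0-fold for Gng13, 4.17-fold for Atp1b2 and 72.3-fold for Tac2. The marker Ly6a moved with these differences, at -2.57 on the EPO day 6 array and at 4.55 and 3.99 on the IL-3/GM-CSF and combined day 6 arrays. Neutrophil markers moved as well: all 12 of the 12 measured were at least 2-fold higher at day 6 than in Sca1-low cells under both IL-3/GM-CSF and combined treatment, as were 9.98% of all genes. The summed level of the neutrophil markers on the day 6 arrays ran from 4.01 (EPO) to 11.49 (IL-3/GM-CSF). The part of these cells in the result was not tested.

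**Figure D2:**
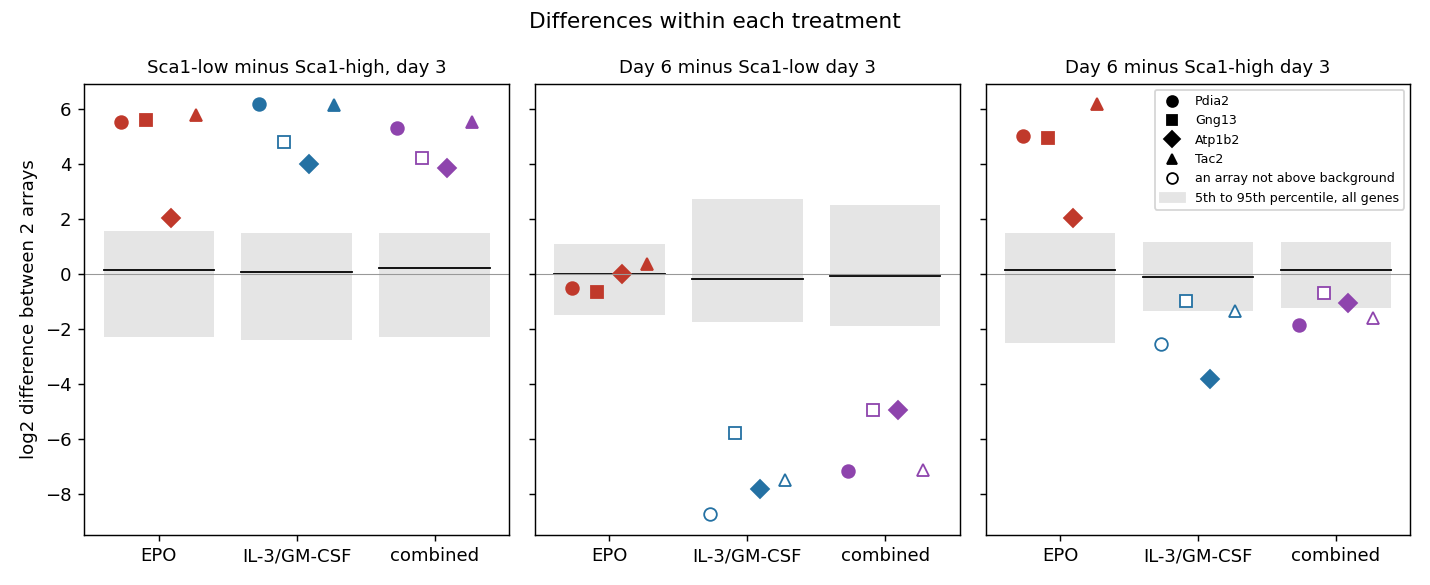
Log2 difference between 2 arrays of a treatment (y axis) for each gene, by treatment (x axis), for Sca1-low minus Sca1-high, day 6 minus Sca1-low and day 6 minus Sca1-high. Open symbols have an array that was not well above background, grey bars span the 5th to 95th percentile of all tested genes and black lines mark their median. Under EPO the 4 genes sit near 0 from Sca1-low to day 6, while under the other treatments their measured differences lie at -4.92 or lower, of which the open symbols stand for bounds as small as -3.59 (Gng13, IL-3/GM-CSF).

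At day 6 the combined and EPO arrays shared a slide and both had EPO in the medium. There, Pdia2 was 830.2-fold, Atp1b2 66.0-fold, Tac2 at least 404-fold and Gng13 at least 272-fold lower with the combined factors than with EPO alone, and 13.1% of all genes were lower by 2-fold or more. At day 3 the combined cells lay below EPO cells as well, by 8.26-fold (Pdia2), 16.0-fold (Gng13), 2.18-fold (Atp1b2) and 2.92-fold (Tac2) in the Sca1-low fraction, where 10.5% of genes did so. In the Sca1-high fraction these values were 7.16-fold, at least 6.21-fold, 7.71-fold and 2.44-fold, with 8.78% of genes lower. Within slide 2, EPO cells were higher than IL-3/GM-CSF cells by 6.53-fold, 15.8-fold, 3.22-fold and 2.65-fold for Pdia2, Gng13, Atp1b2 and Tac2 in the Sca1-low fraction, which 9.2% of genes were. In the Sca1-high fraction they were higher by 10.3-fold, at least 7.78-fold, 12.3-fold and 3.39-fold, as were 5.79% of genes. At day 6, across slides, they were higher by at least 1238-fold, at least 122-fold, 726-fold and at least 181-fold, as were 16.2% of genes. The EPO arrays are the bright side in each of these pairs and were used to choose the genes, so the folds are a description and nothing is read from the shares of all genes beside them.

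The combined and IL-3/GM-CSF arms differ by EPO alone, and none of their 3 pairs of arrays shared a slide. In Sca1-low cells, combined minus IL-3/GM-CSF was -0.34 for Pdia2, -0.02 for Gng13, 0.56 for Atp1b2 and -0.14 for Tac2. In Sca1-high cells it was 0.52 for Pdia2, 0.68 for Atp1b2 and 0.47 for Tac2, and Gng13 was below background on both arrays. At day 6, Atp1b2 was higher in the combined arm by 3.46 and Pdia2 at least 1.49-fold, and Gng13 and Tac2 were below background on both arrays. None of the 4 genes passed 2-fold in all 3 populations, while 1 of all genes tested did so in the higher direction (0.00704%) and 6 did in the lower (0.0422%). Gng13 and Tac2 could not pass, since each was below background on both arrays of a pair, and nothing is read from this count. In the limma fit of all 10 arrays the mean difference was 0.47 for Pdia2 (SE 1.62, 95% interval -3.46 to 4.40), 0.46 for Gng13 (-2.40 to 3.32), 1.57 for Atp1b2 (-1.71 to 4.85) and 0.18 for Tac2 (-3.88 to 4.24), each with a limma adjusted p of 1.00. These intervals are wide and do not show that the arms act alike. Without the IL-3/GM-CSF day 6 array the 4 differences were -1.03, -0.56, -0.05 and -1.11, and with slide as a block -6.66, -4.70, -3.39 and -7.46, so no direction is given.

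Against untreated cells, the IL-3/GM-CSF arrays, all on other slides, lay on both sides. Pdia2 was 18.4-fold higher in Sca1-low cells, 3.95-fold lower in Sca1-high cells and at least 14.7-fold lower at day 6. Atp1b2 was 4.24-fold higher, 3.77-fold lower and 53.2-fold lower in the same order. Gng13 and Tac2 were at least 17.4-fold and at least 63.5-fold higher in Sca1-low cells, with no fold on the other arrays. The combined arm gave the same pattern, with Pdia2 14.6-fold higher, 2.75-fold lower and 9.87-fold lower and Atp1b2 6.26-fold higher, 2.35-fold lower and 4.84-fold lower, the last of each on the slide of the untreated array. Combined Sca1-low cells held at least 17.2-fold more Gng13 and at least 57.5-fold more Tac2 signal than untreated cells. None of the 4 genes was 2-fold higher or lower on all 3 arrays of an arm, against 1.28% of genes higher and 2.11% lower under IL-3/GM-CSF and 1.01% and 2.05% under the combined treatment. Gng13 and Tac2 could not be, since each lacked a fold on an array of both arms. The fitted means were -0.77, 1.89, -1.85 and 1.45 for Pdia2, Gng13, Atp1b2 and Tac2 under IL-3/GM-CSF and -0.30, 2.35, -0.29 and 1.63 under the combined treatment, and neither set passed the limma threshold. With slide as a fixed block the same differences were 11.62, 10.73, 7.67 and 14.21 under IL-3/GM-CSF, with limma adjusted p-values of 0.0229, 0.0311, 0.0911 and 0.0219, and 4.96, 6.03, 4.28 and 6.75 under the combined treatment, of which Tac2 passed (limma adjusted p = 0.0333). The untreated array and the Sca1-low arrays took part in the choice of the genes, so these p-values are not independent of it.

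That limma fit had an additive model of treatment and population with 4 residual degrees of freedom, so its p-values set a mean against its unevenness over conditions and not against replicate error. It called 0 genes (0.0% of 14202) at an adjusted p under 0.05 in each of the 4 comparisons tested. The counts at an unadjusted p under 0.05 were 960 for IL-3/GM-CSF and 674 for combined minus untreated, 261 for combined minus IL-3/GM-CSF and 1368 for day 6 minus day 3. Over all treatments, day 6 minus day 3 was -2.63 for Pdia2 (SE 1.40, limma adjusted p = 0.587), -1.34 for Gng13 (SE 1.02, 0.694), -2.59 for Atp1b2 (SE 1.17, 0.539) and -1.82 for Tac2 (SE 1.45, 0.706). Without EPO Sca1-low it called 7 genes for IL-3/GM-CSF minus untreated, and without IL-3/GM-CSF day 6 it called 1 for combined minus untreated. Without the EPO day 6 array the fit called 789 genes (5.56%), and the 4 genes fell by 5.07 (Pdia2, limma adjusted p = 0.0051), 3.09 (Gng13, 0.0128), 4.40 (Atp1b2, 0.0356) and 4.37 (Tac2, 0.00368). The day 3 side of this fit holds the Sca1-low arrays on which the genes were chosen to be high, and the array left out is the day 6 array on which they were high, so these p-values are not independent of the choice and support nothing. With slide as a fixed block, day 6 minus day 3 was called for 655 genes, with -12.39, -8.34, -9.83 and -12.02 for Pdia2, Gng13, Atp1b2 and Tac2 (adjusted p from 0.0107 to 0.0279). The same Sca1-low arrays enter here. Values of the block rest on additivity across slides that held different conditions and no slide held the day 3 and day 6 arrays of the same arm.

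The relatives of each gene were looked at through lists of their families. Of 19 tested protein disulfide isomerase and endoplasmic reticulum oxidation genes other than Pdia2, 0 were at least 2-fold higher in the Sca1-low fraction with all 3 treatments and 1 was lower, with a median mean difference of -0.61 against 0.17 over all genes. Of all genes, 2.7% were higher and 5.65% lower by this count, which is also used for the family lists below. The lower gene was Txndc16, a thioredoxin-domain gene. At day 6, 7 of the 19 were higher than in Sca1-low cells under both IL-3/GM-CSF and combined treatment and 0 lower, as were 9.98% of all genes, where Pdia2 was lower. Tmx4, a membrane-bound relative, ran from -0.13 in EPO Sca1-low cells to 2.75 at IL-3/GM-CSF day 6, Ero1b, an oxidase of the pathway, over 2.61 with its lowest level at EPO day 6 and its highest, -0.39, at IL-3/GM-CSF day 6, and Erp27 from 1.79 in combined Sca1-low cells to 4.08 at IL-3/GM-CSF day 6. All 4 relatives named had their highest level on the array on which Pdia2 was lowest. They were named for the widest range in the list, and the rest of the list was mixed. Some of the others peaked on that array too. Others peaked elsewhere, such as in IL-3/GM-CSF Sca1-high cells, at EPO day 6 or in EPO Sca1-low cells, where Pdia2 was highest.

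Of 13 tested beta and gamma subunit genes other than Gng13, 1 was higher and 2 were lower in Sca1-low cells under all 3 treatments (median -0.03). The higher gene was Gng8, which ran from -0.31 in EPO Sca1-low cells, the array on which Gng13 was highest too, to a spot not well above background at IL-3/GM-CSF day 6. The lower genes were Gngt2 and Gng2. Gngt2 ran from -1.39 in EPO Sca1-low cells to 4.07 at IL-3/GM-CSF day 6, and Gng2, a widely used gamma subunit, from -1.59 at EPO day 6 to 3.76 in IL-3/GM-CSF Sca1-high cells. The beta subunit gene Gnb4 ran from -1.80 at IL-3/GM-CSF day 6 to 2.83 in untreated cells.

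Of 12 tested Na,K-ATPase, H,K-ATPase and FXYD genes other than Atp1b2, 0 were higher and 1, the regulator Fxyd5, was lower in Sca1-low cells under all 3 treatments (median -0.07). Fxyd5 ran from 2.55 at EPO day 6 to 6.14 in IL-3/GM-CSF Sca1-high cells. Atp1b1, the beta 1 subunit gene, was well above background on 2 of 10 arrays. Fxyd4 and Fxyd6 were so on 4 and 8 arrays. Of 6 tested tachykinin, receptor and peptide processing genes other than Tac2, 0 were higher and 1, the tachykinin gene Tac4, was lower (median -0.16). Tac4 ran from -4.60 at EPO day 6 to 1.18 in IL-3/GM-CSF Sca1-high cells. The tachykinin receptor gene Tacr2 was well above background on all 10 arrays, from 2.35 in EPO Sca1-low to 5.93 in combined Sca1-low cells, while the processing genes Pcsk2 and Pam ranged over 2.47 and 1.48. In these 4 family lists 0 genes were at least 2-fold higher than untreated on all 3 EPO arrays (0.69% of all genes).

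Most red cell genes were high on the same arrays as the 4 genes. The genes were chosen for being high on Sca1-low or EPO arrays, where most red cell genes were high too, so the counts and correlations below are not independent of that choice. Of 22 tested erythroid genes out of 25 listed, 17 were higher in the Sca1-low fraction with all 3 treatments and 0 lower (median 3.02), 3 were higher than untreated on all 3 EPO arrays, and 17 were lower at day 6 than in Sca1-low cells under both IL-3/GM-CSF and combined treatment. Over all tested genes, 2.7% were higher and 5.65% lower in the Sca1-low fraction (median 0.17). The shares were 0.69% for the EPO count and 5.76% for the day 6 count. The correlation of Pdia2 with these genes over the 10 arrays had a median Pearson r of 0.93 (13 of 22 over 0.9), and the medians were 0.84 for Gng13 (5 over 0.9), 0.87 for Atp1b2 (10) and 0.90 for Tac2 (10). Over all tested genes, 5.80%, 6.05%, 2.50% and 5.42% had an r over 0.9 with Pdia2, Gng13, Atp1b2 and Tac2. The exception was Nfe2, the gene of a factor of red cells and megakaryocytes, with r of -0.73, -0.60, -0.76 and -0.56, and it was the 1 erythroid gene at least 2-fold higher at day 6 than in Sca1-low cells under both treatments. The other erythroid genes tested all had r above 0 with each of the 4 genes, and the lowest among them was 0.38, for Tal1 with Tac2. Against Epor, the EPO receptor gene, r was 0.97 for Pdia2, 0.85 for Gng13, 0.97 for Atp1b2 and 0.89 for Tac2, and against the factor genes Klf1 and Gata1 it ran from 0.87 to 0.98 and from 0.80 to 0.98. Hba-a1, a haemoglobin gene, gave 0.82 to 0.87 and Alas2, the erythroid haem synthesis gene, 0.65 to 0.82. The progenitor genes ran the other way, with r from -0.92 to -0.77 for Ly6a and from -0.96 to -0.77 for Cd34, while the receptor gene Kit gave -0.43 to 0.07. Among themselves the 4 genes had r from 0.82 (Gng13 and Atp1b2) to 0.96 (Gng13 and Tac2). All these points share the same 10 arrays, slides and background limits.

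The genes most like each were named by the 5 highest r over the 10 arrays. For Pdia2 they were Ube2l6 (0.997), Dcaf4 (0.993), Smim1 and Icam4, which encode red cell surface proteins (0.991 each), and Rpusd3 (0.991). For Tac2 they were Dus2 (0.995), Gypc, the glycophorin C gene (0.994), the erythroid gene Trim10 (0.993), the translocator protein gene Tspo2 (0.991) and the paraoxonase gene Pon2 (0.990). For Gng13 they were Traf4 (0.987), Asb17, Rnf181 and Asb6 (0.980 each) and the sugar transporter gene Slc2a8 (0.979). For Atp1b2 they were Dmwd, the membrane protein gene Tspan33 and the factor gene Gata1 (0.984 each), the phosphatase gene Acp5 (0.982) and Klf1 (0.982). The sizes of movement differed within these groups, since Rnf181 ran over a level range from 3.65 to 4.85 while Tspan33 ran from -2.43 to 7.05.

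**Figure D3:**
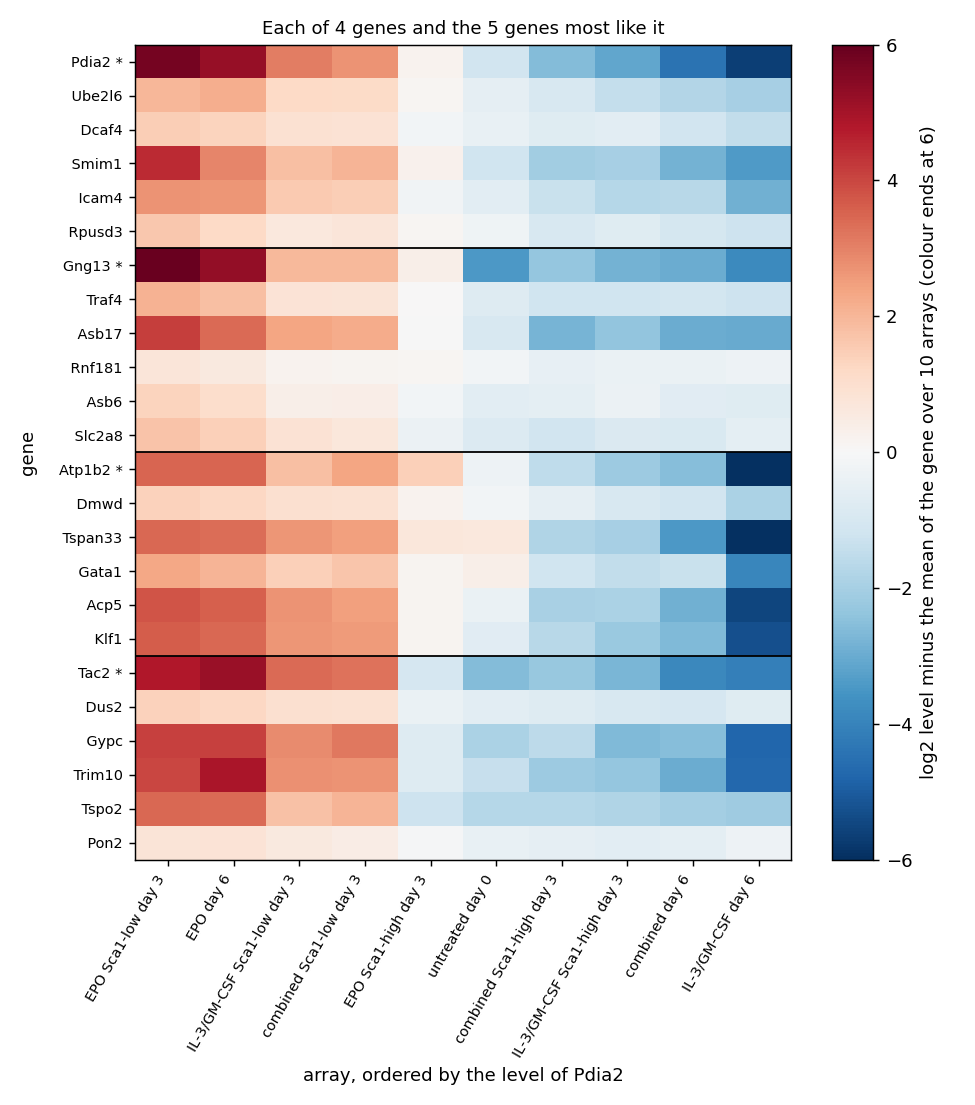
Level of each of the 4 genes and the 5 genes with the highest Pearson r to it, as log2 level minus the mean of that gene over 10 arrays (colour, ending at 6 in each direction). The colours show measured levels, while r was taken on levels floored at the background limit. Arrays on the x axis are ordered by the level of Pdia2, and an asterisk marks each of the 4 genes. The 4 arrays at left, the Sca1-low arrays and EPO day 6, lie above the mean of the gene in every row.

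Gene order was read from RefSeq to see whether neighbours on the chromosome moved with these genes. Pdia2 and Gng13 both lie on chromosome 17 with 40 RefSeq genes between them, of which 25 were tested, and 3 of those were at least 2-fold higher in the Sca1-low fraction with all 3 treatments and 0 on all 3 EPO arrays. Atp1b2 lies on chromosome 11 beside Trp53, and Tac2 on chromosome 10 between Myo1a and Zbtb39. Of the 24 nearest tested genes, 3 on each side of each gene, 4 were higher in the Sca1-low fraction with all 3 treatments, namely Chtf18, Wrap53, Efnb3 and Nemp1, and 0 were higher than untreated on all 3 EPO arrays. Over all tested genes the shares were 2.7% (Sca1-low) and 0.69% (EPO), which also stand beside the counts between Pdia2 and Gng13. Chtf18, next to Gng13, was higher by 1.55, 1.03 and 1.20 under EPO, IL-3/GM-CSF and combined treatment, where Gng13 was higher by 5.60, at least 4.58 and at least 4.24. Efnb3 near Atp1b2 was higher by 1.60, 1.54 and 1.71, and Nemp1 near Tac2 by 1.04, 1.37 and 1.58. Trp53 was higher by 1.01, 0.30 and 0.83. The 6 neighbours of Pdia2 held 0 such genes, with 0.40, -0.13 and -0.12 for Axin1. Mrpl28 (1.47, 0.45 and 1.04), Rgs11 (1.73, 0.35 and 0.31) and Luc7l (0.73, 0.34 and 0.41) were higher in each treatment. Pgap6 and Fam234a, like Axin1, had differences of both signs. The r of a neighbour with its gene ran from -0.73 (Nab2) to 0.97 (Chtf18), with a median of 0.78. Over all tested genes the median r was 0.37 with Pdia2, 0.39 with Gng13, 0.32 with Atp1b2 and 0.37 with Tac2.

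**Figure D4:**
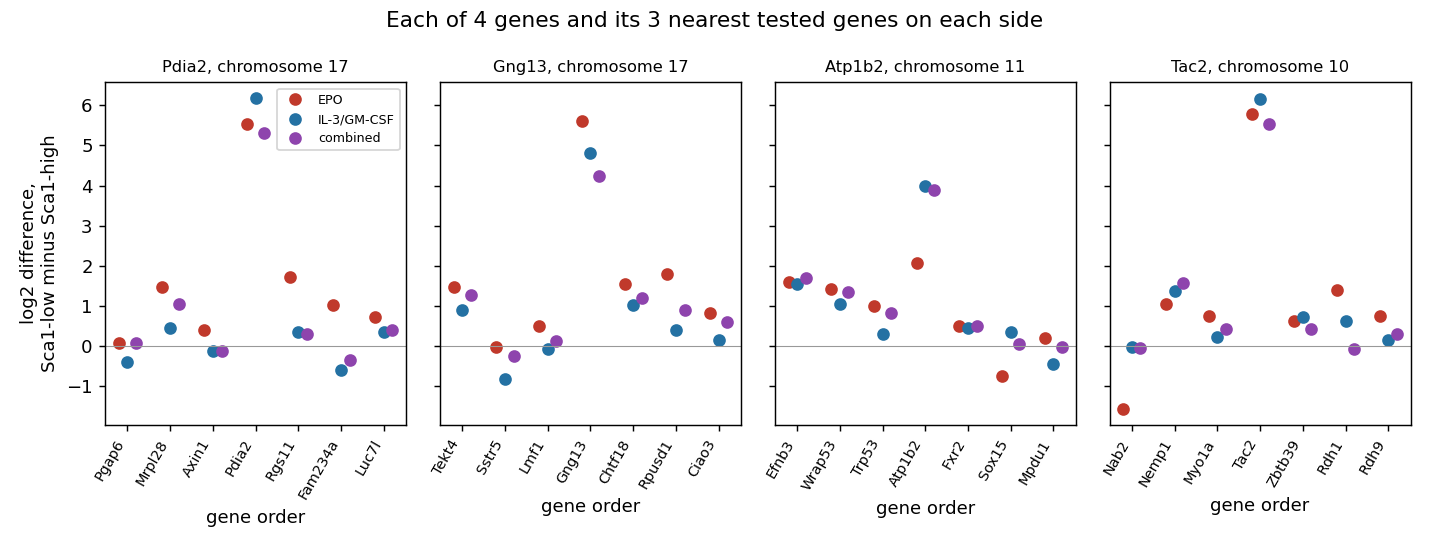
Log2 difference Sca1-low minus Sca1-high (y axis) for each of the 4 genes and its 3 nearest tested genes on each side, in gene order (x axis), with 1 point per treatment and spots below background drawn at their measured value. The 4 genes stand above all 24 neighbours in each treatment.

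Markers of the tissues in which the 4 genes are better known were counted on the same arrays, with the summed level given as log2 of the summed signal of a list. Of 11 neuron genes measured, 6 were tested, and 1, the tubulin gene Tubb3, was higher in the Sca1-low fraction with all 3 treatments. Its level ran from -5.50 at IL-3/GM-CSF day 6 to -1.30 in EPO Sca1-low cells. The summed neuron level ran from 4.14 to 6.84 on Sca1-low and from 5.03 to 6.23 on Sca1-high arrays, and its highest value, in combined Sca1-low cells, lay close to the 6.78 of the synaptic gene Snap25 alone. Snap25, the synaptic vesicle gene Syp and the RNA-binding protein gene Elavl4 were well above background on all 10 arrays, and Map2 and Stmn2 on 0. In between, Tubb3 was so on 9 arrays, Eno2 on 8, Syn1 on 5, and Rbfox3, Nefl and Gap43 on 1 each. Of 6 tested pancreatic acinar genes 1, the elastase gene Cela1, was higher (from 0.40 at IL-3/GM-CSF day 6 to 5.19 in EPO Sca1-low cells), with summed levels from 4.11 to 5.23 on Sca1-low and from 2.05 to 3.48 on Sca1-high arrays. The EPO Sca1-low sum of 5.23 lay close to the 5.19 of Cela1 alone. The protease gene Ctrb1 and the lipase gene Cel were also well above background on all 10 arrays, between -2.42 and -1.84 and between -1.59 and -1.01. Of the other acinar genes, Try4 was so on 5 arrays, Prss1 and Prss2 on 3 each, Cela2a, Pnlip and Amy2a5 on 1 each, and Cpa1 and Ptf1a on 0. Glial genes gave 0 of 6, with sums from 0.53 to 0.99 and from 0.02 to 0.54, and taste cell genes 0 of 5 higher and 2, Itpr3 and Plcb2, lower, with sums from 2.46 to 2.84 and from 3.91 to 4.11. Among other blood cells, 4 of 12 neutrophil, 4 of 8 mast cell, 2 of 8 megakaryocyte and 6 of 11 stem and progenitor genes were lower in Sca1-low cells under all 3 treatments, and 0 of each list were higher. By the same comparison 2.7% of all genes were higher and 5.65% lower, and these shares stand beside every list of this paragraph.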

How the data were processed

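Gene expression in EML-C1 cells was measured on 10 1-colour Agilent arrays, 1 per condition. The deposited files held spot intensities from Agilent Feature Extraction 11.0.1.1, per the submitters' processing notes, and the 62969 rows of the series matrix repeat those processed values. Per the file headers the processed signal is background-subtracted, and the header build is mm9. Column medians of the series matrix ran from 17.0 to 36.9.

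Control spots and outlier flags were left out, spots of a probe were averaged, and log2 of the processed signal minus the 75th percentile of the array was used. RefSeq tables named 27229 of 55681 probes (98.1% of those with an NM or NR accession), and the brightest probe stood for a gene. A gene was tested if its signal was well above background on 2 or more arrays (14202 genes). Limma 3.58.1 under R 4.3.3 fitted a mean for untreated cells and for each treatment, population terms and 4 residual degrees of freedom. Benjamini-Hochberg adjustment ran over all tested genes, with a threshold of 0.05. The fit was run on simulated data with independent noise and planted effects. That run checks the computation only, since it held no slides and no unevenness of treatment over population. With no replicates, p-values measure unevenness across conditions, and repeat spots of a probe on an array had a median SD of 0.04 to 0.08.

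Members and lists were chosen with earlier results of these data known. The EPO and Sca1 comparisons chose the genes and were not tested. Named were the 4 genes, the 5 genes most like each by Pearson r on levels floored at the background limit (without clone-type symbols), the 4 members of each family list with the widest range, the 3 nearest tested genes on each side, and Hba-a1, Alas2, Epor, Klf1, Gata1, Ly6a, Kit and Cd34. A further gene of this rule is not reported here. The members of a family list that passed 2-fold between the Sca1 fractions under all 3 treatments are named too. So are those of the neuron, pancreatic acinar and taste cell lists. Nfe2, Tal1 and the remaining genes of the neuron and pancreatic acinar lists were named after their values were seen. Alternatives were normexp (offset 50) with quantile normalization, plain quantile normalization, series matrix values, median centring, other filters, the mean of all probes, outlier flags kept, slide as a block and each array left out. Normexp used the median foreground signal where the mean signal had been planned.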

Additional observations from a re-analysis of the deposited data

Results flagged for a closer look

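Day 6 stood apart between treatments for Atp1b2 and Tac2, though not for these genes alone. Under EPO, day 6 was no lower than either day 3 fraction, with a mean difference of 1.03 for Atp1b2 and 3.28 for Tac2, while with the combined factors it lay below each fraction for both genes. Under IL-3/GM-CSF it was lower than both for Atp1b2, and Tac2 gave no fold against Sca1-high cells there. The Atp1b2 difference under EPO exceeded that under IL-3/GM-CSF (mean -5.82) by 6.85 and that under the combined treatment (mean -2.98) by 4.01. For Tac2 it exceeded that under the combined treatment by at least 7.24, with the differences under the combined treatment at their bounds (mean -3.96), since its day 6 level was not well above background. Both fractions were compared with the same day 6 array, and the difference between treatments was not tested. Pdia2 also differed. Its day 6 minus Sca1-low and day 6 minus Sca1-high differences were -0.51 and 5.01 under EPO. Under the combined treatment they were -7.17 and -1.84. For Gng13, day 6 minus Sca1-low was -0.64 under EPO and -4.73 or lower under the combined treatment. The EPO and Sca1-low arrays helped to choose the genes, and GM-CSF entered the other arms only after day 3. Atp1b2 under EPO lay level with its Sca1-low value, at 6.65 on both arrays.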

How the results depend on the processing

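No paired analysis was possible because every condition held 1 array and all carried the same replicate number; shared slides were fitted as a block instead. Of 196 values under other background, normalization, filter, probe and flag settings, 191 kept their direction and side of the threshold or, for untested means, moved by less than 1 SD. Many of these values could not move, so the count says little about robustness. The series matrix repeats the processed signal and gave the same values as keeping the outlier flags. Filters leave the difference of a gene unchanged. The mean of all probes is the same probe for Gng13, Atp1b2 and Tac2. Normexp with quantile normalization gave 0.14 for Pdia2 in combined minus untreated, and 5.08, 3.21 and 3.90 for Pdia2, Gng13 and Tac2 in Sca1-low minus Sca1-high. A filter on all 10 arrays called 1 gene for IL-3/GM-CSF minus untreated in limma. With slide as a block, limma called 293 genes for IL-3/GM-CSF minus untreated, 63 for combined minus untreated and 655 for day 6 minus day 3. Under this block Pdia2, Gng13, Atp1b2 and Tac2 lay at 11.62, 10.73, 7.67 and 14.21 in IL-3/GM-CSF minus untreated, at -6.66, -4.70, -3.39 and -7.46 in combined minus IL-3/GM-CSF and at -12.39, -8.34, -9.83 and -12.02 in day 6 minus day 3. In combined minus untreated they lay at 4.96 (Pdia2), 4.28 (Atp1b2) and 6.75 (Tac2). The cause was not tested. Centring on the array median moved the median of all genes in day 6 minus day 3 from -0.00 to 0.29.

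Leaving out each array in turn gave ranges for Pdia2, Gng13, Atp1b2 and Tac2. For day 6 minus day 3 these were -5.07 to -1.13, -3.09 to -0.33, -4.40 to -0.98 and -4.37 to -0.53, with 0 to 789 genes called. For combined minus IL-3/GM-CSF they were -1.03 to 1.41, -0.56 to 1.19, -0.047 to 2.63 and -1.11 to 1.44, with 0 genes called. For IL-3/GM-CSF minus untreated they were -1.71 to 0.73, 1.35 to 2.91, -2.92 to -0.24 and 0.68 to 2.73, with 0 to 7 genes called. For combined minus untreated they were -0.90 to 0.64, 1.74 to 3.08, -0.60 to -0.09 and 0.89 to 2.89, with 0 to 1 called. The described EPO differences ranged from 3.89 to 6.65, 6.28 to 9.08, 2.74 to 3.77 and 4.49 to 7.58, and Sca1-low minus Sca1-high from 5.43 to 5.86, 4.52 to 5.20, 2.97 to 3.94 and 5.67 to 5.97. Dim spots limit Gng13 and Tac2, which were well above background on 5 and 7 of 10 arrays.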
